A study of Mus musculus with 3 samples.

Results

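In all, 10 genes of heterochromatin formation and retroelement silencing were followed in ALSCs, out of 55421 named genes in the table. They were taken by name and not by any measured value, and all 10 were found once each. They are *Trim28*, *Setdb1*, *Zfp57*, *Zfp445*, *Zfp809*, *Cbx1*, *Cbx3*, *Cbx5*, *Atrx*, and *Daxx*. ALSCs are primed mouse stem cells grown with Activin A and LIF from epiblasts of embryonic day 6.5, obtained by crossing ICR females to males carrying the GOF/GFP transgene. PolyA RNA of these cells was sequenced in 3 libraries (replicates 1, 2, and 3) of 1 condition, and no second group is compared here. They are described as biological replicates, and nothing states whether they came from separate lines. The p-values below therefore measure only the spread between these libraries.

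The products of these genes, apart from ATRX and DAXX, act along a common route. KRAB zinc finger proteins such as ZFP57, ZFP445, and ZFP809 bind DNA at imprinted regions or retroelements and bring in the corepressor TRIM28. TRIM28 recruits the methyltransferase SETDB1, which trimethylates histone H3 at lysine K9, and that mark is bound by the HP1 proteins encoded by *Cbx1*, *Cbx3*, and *Cbx5*. ATRX and DAXX act together to deposit the histone variant H3.3 at repeats and telomeres. In pluripotent cells this machinery keeps endogenous retroviruses silent and maintains parental imprints. Transcripts of retroelements themselves were not analysed here, since the table counts genes.

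The libraries held 18088505, 18724038, and 18037342 counts on named genes in replicates 1, 2, and 3. Levels are given as FPKM, the count divided by the exon length of the gene in kilobases and by the library total on named genes, scaled as usual. Replicate 1 stood apart from the other libraries, with a biological coefficient of variation (edgeR) of 0.153 over all libraries and 0.0530 without it. Chi-square calls and overlaps in the order of levels are given with and without replicate 1. Means, SDs, and mean shares cover all 3 libraries. Markers of pluripotency and epiblast were present, with 7 of 7 at 1 FPKM or more in every library. The highest was *Pou5f1* at 647.8 ± 25.3 FPKM and the lowest *Fgf5* at 3.89 ± 0.0503 FPKM (SD, n = 3). Of 5 fibroblast markers, 4 stayed at or under 3 counts in each library (*Dcn* and *Lum* at 0), and *Col1a2* was at 0.236 ± 0.0813 FPKM (SD, n = 3).

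The promoters of the members with the highest and the lowest level are shown first, because these genes mark the ends of the range described below. Each sequence holds the 250 bases before an annotated RefSeq start (GRCm38.p6), 5′ to 3′ on the strand of the gene, with the dinucleotide CG in capitals. For *Trim28* the window is chr7:13023902-13024151 on the plus strand, and for *Zfp809* it is chr9:22225453-22225702 on the plus strand. Neither window overlaps an annotated exon of its gene, and the *Trim28* window lies in an intron of a noncoding *Trim28* transcript that starts further upstream.
Trim28: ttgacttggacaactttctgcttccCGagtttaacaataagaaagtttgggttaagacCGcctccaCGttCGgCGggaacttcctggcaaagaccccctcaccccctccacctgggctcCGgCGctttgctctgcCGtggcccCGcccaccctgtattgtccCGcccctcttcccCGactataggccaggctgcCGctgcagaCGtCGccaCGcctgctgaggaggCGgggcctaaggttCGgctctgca
Zfp809: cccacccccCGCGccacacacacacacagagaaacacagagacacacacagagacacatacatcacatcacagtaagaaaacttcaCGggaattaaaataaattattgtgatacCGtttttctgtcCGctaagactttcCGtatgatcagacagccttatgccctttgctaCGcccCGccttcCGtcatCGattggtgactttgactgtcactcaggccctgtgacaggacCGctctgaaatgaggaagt

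The *Trim28* window held 17 CG dinucleotides and the *Zfp809* window 11, against a median of 6 over 32851 windows of the same length. At least 17 were present in 23.5% of all windows and at least 11 in 35.6%. The richest member windows were those of *Cbx3*, with 31, and *Daxx*, with 30. Other member windows were not above the median, among them a window of *Zfp57*, with 3, and those of *Zfp445*, with 5, and *Atrx*, with 6. At least 31 were found in 5.19% of all windows. The hexamer TGCCGC, which ZFP57 is known to bind when methylated, was searched on both strands. It occurred in 1 of the 17 windows of the 10 members, against 8.68% of all windows. That window is the one of *Trim28*, where the hexamer overlaps a CG shown in capitals. These matches are letters in a window and not binding sites.

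All 10 genes were expressed at 1 FPKM or more in every library, a level reached by 45.7% of protein-coding genes. With the limit at 5 FPKM, 8 of the 10 remained, and the share of all genes at that limit was not computed. *Zfp809* was below it in every library, and *Atrx* only in replicate 1 (4.73 FPKM, against 7.55 and 7.53). The plot of levels by library shows a range from *Trim28* at the top to *Zfp809* at the bottom, with *Trim28* 93.0 ± 8.17 times as high as *Zfp809* (SD, n = 3). In RNA of whole cultures, fewer cells of a type and less RNA per cell cannot be told apart.

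**Figure D1:**
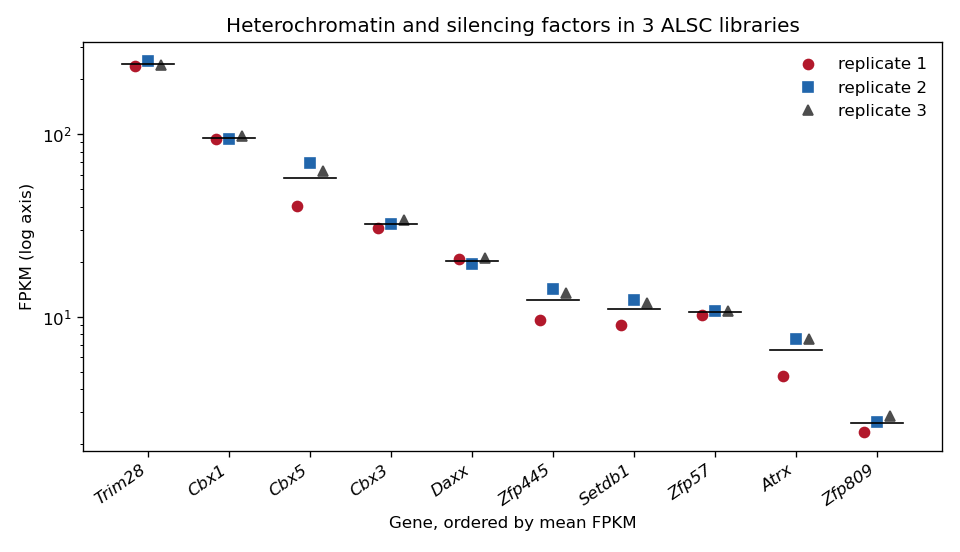
FPKM of the 10 silencing factors (log axis) in each of the 3 ALSC libraries, with genes ordered by mean and a bar at the mean. *Trim28* lies between 234.9 and 251.2 FPKM in all libraries. The red circles of replicate 1 lie furthest below the other libraries for *Cbx5*, *Zfp445*, *Setdb1*, and *Atrx*. By less, they also lie below them for *Trim28*, *Cbx3*, *Zfp57*, and *Zfp809*.

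*Trim28* (ENSMUSG00000005566; GRCm38 chromosome 7, 12999114 to 13031035, plus strand) encodes the corepressor that KRAB zinc finger proteins share. Its level was 234.9, 251.2, and 240.2 FPKM in the 3 libraries in order, a mean of 242.1 ± 8.31 FPKM (SD, n = 3). The 3 libraries lay close together, and its mean exceeded the means of 97.9% of 11125 genes that reached 1 FPKM in every library. *Setdb1* (ENSMUSG00000015697; chromosome 3, 95323525 to 95357202, minus strand) encodes the methyltransferase. It stood at 9.04, 12.4, and 11.8 FPKM in replicates 1, 2, and 3, with a mean of 11.1 ± 1.79 FPKM (SD, n = 3). Replicate 1 was the low library for *Setdb1*, and its mean exceeded those of 59.3% of the same genes. Per length, *Trim28* was 26.0, 20.3, and 20.3 times as high as *Setdb1* in the 3 libraries. Of the 50-base words of the *Setdb1* transcript, 93.3% occurred in no other annotated gene. The end of *Setdb1* also overlaps 75 exonic bases of *Cers2* on the other strand, and the handling of strand in counting is not given in the sources used here.

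Among the KRAB zinc finger genes, *Zfp445* and *Zfp57* were at similar levels and *Zfp809* was lower. *Zfp445* (ENSMUSG00000047036; chromosome 9, 122844529 to 122866006, minus strand) encodes a zinc finger protein of imprinted regions. It was at 9.58, 14.2, and 13.5 FPKM in replicates 1, 2, and 3, with a mean of 12.4 ± 2.47 FPKM (SD, n = 3). *Zfp57* (ENSMUSG00000036036; chromosome 17, 37001163 to 37010635, plus strand), which acts at the same kind of regions, was at 10.2, 10.8, and 10.8 FPKM, with a mean of 10.6 ± 0.346 FPKM (SD, n = 3). The order of these genes depended on the library, since *Zfp445* was at 0.940 of the level of *Zfp57* in replicate 1 and at 1.31 and 1.25 times that level in replicates 2 and 3. *Zfp809* (ENSMUSG00000057982; chromosome 9, 22225714 to 22243354, plus strand) recognises the primer binding site of murine leukemia virus-type retroviruses. Its counts were 125, 148, and 152, which gave 2.33, 2.67, and 2.85 FPKM and a mean of 2.62 ± 0.260 FPKM (SD, n = 3). It was the lowest member in all 3 libraries, with a mean exceeding 16.9% of the means of those 11125 genes. The limit that 3 counts set for a gene of its length was 0.0562 FPKM, so its level was well above detection.

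The HP1 genes were all abundant, and *Cbx1* was the highest of them in every library. *Cbx1* (ENSMUSG00000018666; chromosome 11, 96789127 to 96808640, plus strand), which encodes HP1 beta, was at 94.3, 93.6, and 98.2 FPKM, with a mean of 95.4 ± 2.45 FPKM (SD, n = 3). *Cbx5* (ENSMUSG00000009575; chromosome 15, 103191544 to 103239816, minus strand), which encodes HP1 alpha, was at 40.4, 69.7, and 63.0 FPKM, with a mean of 57.7 ± 15.3 FPKM (SD, n = 3). Its spread of 26.6% of the mean was the largest of the 10 members, and replicate 1 was its low library. *Cbx3* (ENSMUSG00000029836; chromosome 6, 51470360 to 51483704, plus strand), which encodes HP1 gamma, was at 30.8, 32.1, and 33.9 FPKM, with a mean of 32.3 ± 1.58 FPKM (SD, n = 3). Summed over the HP1 genes, the level was 165.5, 195.4, and 195.0 FPKM in replicates 1, 2, and 3.

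*Cbx1* made up 57.0%, 47.9%, and 50.3% of that sum in replicates 1, 2, and 3. *Cbx5* made up 24.4%, 35.7%, and 32.3%, and *Cbx3* made up 18.6%, 16.4%, and 17.4%. With the longest coding transcript as the length, the mean share of *Cbx5* was 19.7% in place of 30.8% and that of *Cbx3* was 22.3% in place of 17.5%, which turned their order. With exon length, the low share of *Cbx5* and the high share of *Cbx1* thus belonged to the same library, and the ratio of *Cbx1* to *Cbx3* stayed between 2.89 and 3.07. *Cbx3* has 9 processed pseudogenes that share 50-base words with its transcript, of which 96.0% are unique. Together these copies held 65, 115, and 91 counts, or 2.56% of the counts of *Cbx3*, and *Cbx3-ps8* held the most, with 34, 64, and 59. Reads of *Cbx3* that were lost or shared in this way are a limit on its level.

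**Figure D2:**
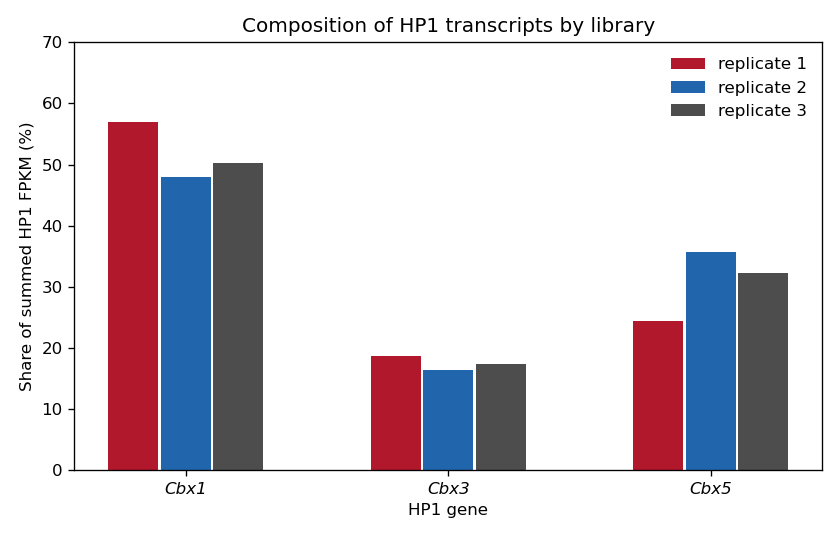
Share of each HP1 gene in the summed FPKM of *Cbx1*, *Cbx3*, and *Cbx5* (percent, axis from 0), with 1 bar for each of the 3 ALSC libraries. *Cbx5* takes 24.4% in replicate 1 against 35.7% and 32.3% in replicates 2 and 3, and *Cbx3* stays between 16.4% and 18.6%.

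Of the H3.3 deposition pair, *Daxx* was higher than *Atrx* per length in every library. *Daxx* (ENSMUSG00000002307; chromosome 17, 33909414 to 33915590, plus strand) encodes the H3.3 chaperone and was at 20.6, 19.4, and 20.9 FPKM, with a mean of 20.3 ± 0.804 FPKM (SD, n = 3). *Atrx* (ENSMUSG00000031229; chromosome X, 105797615 to 105929403, minus strand) encodes the chromatin remodeler and was at 4.73, 7.55, and 7.53 FPKM, with a mean of 6.60 ± 1.62 FPKM (SD, n = 3). Replicate 1 was again the low library for *Atrx*, and not for *Daxx*. *Daxx* was 4.36 times as high as *Atrx* in replicate 1, and 2.57 and 2.78 times as high in replicates 2 and 3.

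In the order of mean levels, 7 of 9 pairs of neighbours had ranges of the 3 libraries that did not overlap. The order ran from *Trim28* over *Cbx1*, *Cbx5*, *Cbx3*, *Daxx*, *Zfp445*, *Setdb1*, *Zfp57*, and *Atrx* to *Zfp809*. The overlapping neighbours were *Zfp445* with *Setdb1* and *Setdb1* with *Zfp57*, so the order of these genes is not resolved by 3 libraries. *Zfp445* was nevertheless above *Setdb1* in 3 of 3 libraries, by a ratio of means of 1.12. No test of the order is given.

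The length that divides the counts bears on this order. The length in the table is that of all exons of a gene, and each member has between 4 and 27 annotated transcripts. For *Atrx* this length was 21757 bases, whereas its longest coding transcript has 10275 bases. With the longest coding transcript as the length, *Atrx* was at 14.0 ± 3.43 FPKM and *Daxx* at 24.0 ± 0.947 FPKM (SD, n = 3), and *Daxx* was 1.80 ± 0.544 times as high. *Cbx3* was at 66.1 ± 3.24 FPKM and *Cbx5* was at 59.0 ± 15.7 FPKM (SD, n = 3), so these genes exchanged places, with overlapping ranges. *Trim28* remained the highest member at 310.3 ± 10.7 FPKM, *Cbx1* the second at 171.4 ± 4.40 FPKM, and *Zfp809* the lowest at 4.30 ± 0.428 FPKM (SD, n = 3). *Zfp57*, *Zfp445*, *Atrx*, and *Setdb1* then lay together between 13.4 and 15.4 FPKM. The plot of levels under both lengths shows which genes moved.

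**Figure D3:**
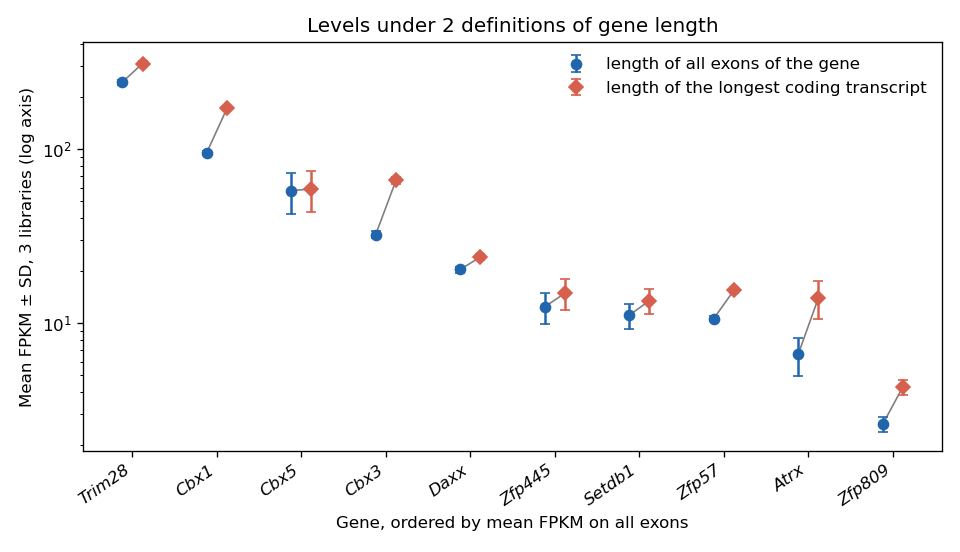
Mean FPKM ± SD of the 10 members over the 3 ALSC libraries (log axis), with the exon length of the gene (blue circles) and with the length of the longest coding transcript (red diamonds). *Cbx3* moves from 32.3 to 66.1 FPKM and *Atrx* from 6.60 to 14.0, while *Cbx5* moves only from 57.7 to 59.0.

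The closest expression profile in the whole table was sought for each member, as the Euclidean distance of log2(FPKM + 1) over the 3 libraries. *Setdb1* lay closest to *Adgra3* (distance 0.0242), *Zfp57* to *Khdc4* (0.0111), and *Cbx5* to *Tnpo1* (0.0840). *Tnpo1* was at 40.2, 65.7, and 62.6 FPKM in replicates 1, 2, and 3. Over 3 libraries such likeness is mostly likeness of level. Among the members, the closest pair was *Setdb1* and *Zfp445*, at 0.259.

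A chi-square test of homogeneity asked whether the counts of a gene varied between the libraries by more than counting error, given TMM library sizes, with Benjamini-Hochberg adjustment over 16944 genes. All 10 members were tested, and 8 passed at 0.05, against 47.2% of all genes tested. Deeply counted genes pass more often, and of 10577 genes whose mean count reached 100, which include all 10 members, 64.7% passed. The test treats reads as independent molecules and covers counting error only, so ordinary variation between cultures also passes it.

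*Setdb1*, *Zfp445*, *Cbx5*, and *Atrx* passed the test and were lowest in replicate 1. That is 4 of 10 members, against 22.1% of all genes tested and 30.8% of those whose mean count reached 100. Their counts in replicates 1, 2, and 3 were 1121, 1589, and 1464 for *Setdb1* and 1284, 1965, and 1798 for *Zfp445*. For *Cbx5* they were 6582, 11746, and 10229, and for *Atrx* 1863, 3075, and 2955. The raw count of replicate 1, not scaled for library size, was below both others in 9 of the 10 members, all but *Daxx*. The share of all genes with such counts was not computed, so this count is not read as a trait of the members. After TMM scaling, 7 of the 10 members had a negative log2 ratio of replicate 1 to the mean of replicates 2 and 3. For *Trim28*, *Cbx1*, and *Daxx* the scaled ratio was positive. The median of this ratio over all genes tested was -0.00023. The adjusted p of the chi-square test was 5.21e-233 for *Cbx5*, 7.78e-54 for *Atrx*, 4.17e-21 for *Zfp445*, and 9.58e-11 for *Setdb1*.

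After TMM scaling, the log2 ratio of replicate 1 to the mean of replicates 2 and 3 was -0.64 for *Cbx5*, -0.60 for *Atrx*, -0.46 for *Zfp445*, and -0.35 for *Setdb1*. These are the 4 members with the longest exons, from 6853 bases in *Setdb1* to 21757 in *Atrx*. Genes of like length were also lower in replicate 1 in general. The median log2 ratio in their groups of length, out of 20 groups of genes whose mean count reached 100, was -0.18 for *Setdb1*, -0.21 for *Zfp445*, -0.28 for *Cbx5*, and -0.53 for *Atrx*. After removal of the trends on exon length and GC content, the ratio was -0.18 for *Setdb1*, -0.32 for *Zfp445*, -0.45 for *Cbx5*, and -0.25 for *Atrx*. It was -0.32 for *Zfp809*, which had 125, 148, and 152 counts and did not pass the chi-square test. The other members lay between -0.10 (*Zfp57*) and 0.06 (*Trim28*), and the median over the 10 members was -0.14. The SD of this corrected ratio over 10573 genes was 0.283. The contribution of exon length to these differences was not tested.

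**Figure D4:**
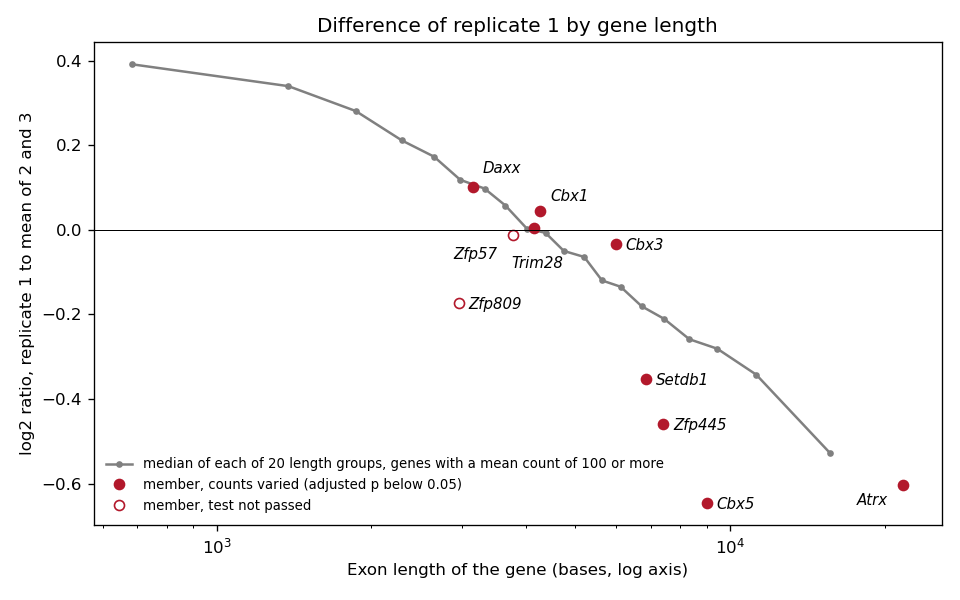
log2 ratio of replicate 1 to the mean of replicates 2 and 3 (TMM library sizes) against exon length (bases, log axis) for the 10 members, filled where the counts varied in the chi-square test, with the medians of 20 length groups of the genes whose mean count reached 100 as a grey line. The line falls from 0.39 in the shortest group to -0.53 in the longest, and *Cbx5*, at -0.64, lies below it.

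*Cbx1*, *Cbx3*, *Daxx*, and *Trim28* passed the chi-square test, with adjusted p = 0.000203, 0.0160, 0.0297, and 0.0360. These calls were not stable. *Trim28* passed the chi-square test in no pair of libraries (adjusted p from 0.0519 to 0.405), and *Daxx* failed on plain library totals (0.242) and without replicate 1 (0.175) or 2 (0.640). *Cbx1* failed the chi-square test without replicate 2 (adjusted p = 0.989), and *Cbx3* without replicate 3 (0.685). The log2 ratio of replicate 1 was 0.04 for *Cbx1*, -0.03 for *Cbx3*, 0.10 for *Daxx*, and 0.0046 for *Trim28*. The sign for *Trim28* and *Cbx1* was not stable, since on plain library totals it was -0.06 and -0.02. *Zfp57*, with 698, 765, and 737 counts, and *Zfp809* did not pass (adjusted p = 0.955 and 0.527, chi-square test). Their log2 ratios were -0.013 and -0.17. Over the 10 members the median ratio was -0.10, against -0.00023 over all genes tested. The median coefficient of variation of FPKM was 7.42%, against 10.6% over genes whose mean count reached 100. Those genes were not matched to the members for depth or exon length, so the members are not shown to be steadier.

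Without replicate 1, 3 of the 10 members passed the chi-square test, against 8.11% of the 16062 genes tested in replicates 2 and 3 and 10.6% of those whose mean count reached 100. These were *Cbx5* (adjusted p = 2.65e-08), *Cbx1* (0.00373), and *Cbx3* (0.0379). *Cbx5* had its higher level in replicate 2, and *Cbx1* and *Cbx3* had theirs in replicate 3. The log2 ratio of replicate 2 to replicate 3 was 0.12 for *Cbx5*, -0.09 for *Cbx1*, and -0.10 for *Cbx3*. The largest log2 ratio of any member between these libraries was -0.13, for *Daxx*, which did not pass (adjusted p = 0.175, chi-square test). *Daxx* had at most 1189 counts in these libraries, whereas each HP1 gene had at least 3601. The share of 10.6% is not matched to such depth, so the calls of the HP1 genes are not read as a trait of this family. *Setdb1*, *Zfp445*, and *Atrx* did not pass without replicate 1 (adjusted p = 0.710, 0.573, and 0.839, chi-square test). Without replicate 2, 5 members passed, against 42.9% of all genes tested and 57.3% of those whose mean count reached 100. Without replicate 3, 6 passed, against 46.7% and 62.1%.

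The wider machinery was looked at through 6 lists of related genes with 42 genes in all, of which 40 were at 1 FPKM or more in every library. Of the 41 genes with enough counts to test, 29 varied in the chi-square test and 19 of these were lowest in replicate 1. Without replicate 1, 4 varied. Over all genes tested 47.2% varied, 22.1% varied and were lowest in replicate 1, and 22.2% varied and were highest in it. Among genes whose mean count reached 100 these shares were 64.7%, 30.8%, and 31.4%. Without replicate 1 the shares of genes that varied were 8.11% and 10.6%. The libraries are the same ones in which the members were tested. Among genes whose mean count reached 100, the median log2 ratio of replicate 1 was 0.39 in the shortest length group and -0.53 in the longest. The shares given here and for each list below are not matched for exon length. How far exon length accounts for the calls in each list was not tested.

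All 8 H3K9 methyltransferases and cofactors were at 1 FPKM or more. *Ehmt2*, which encodes the methyltransferase G9a, was the highest at 33.0 ± 3.09 FPKM. *Atf7ip*, which encodes the partner that stabilises SETDB1, was the lowest at 2.27 ± 0.525 FPKM (SD, n = 3). Of these 8 genes, 6 varied (64.7% of deeply counted genes did) and 5 of them were lowest in replicate 1 (30.8%), with none varying without it (10.6%). The HUSH complex, which silences retroelements through the same mark, had all 4 genes at 1 FPKM or more. *Mphosph8*, which encodes its chromodomain subunit, was at 36.8 ± 2.52 FPKM, and *Tasor*, which encodes its scaffold, at 2.25 ± 0.833 FPKM (SD, n = 3). *Tasor* had 322, 738, and 624 counts and was among the 3 HUSH genes that varied, all lowest in replicate 1, and none varied without that library. With 4 genes, 3 is near the 64.7% of deeply counted genes that varied. Of deeply counted genes, 30.8% varied and were lowest in replicate 1, and 10.6% varied without it.

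The 8 partners of TRIM28 were all at 1 FPKM or more. The NuRD remodeler gene *Chd4* led them at 78.7 ± 15.5 FPKM, and the TRIM family gene *Trim33* was the lowest at 8.52 ± 1.25 FPKM (SD, n = 3). Of these 8, 7 varied (against 64.7%), 5 of them lowest in replicate 1 (30.8%), and 2 varied without it (10.6%). All 7 genes of H3.3 and histone chaperones were at this level too, from *H3f3b*, an H3.3 gene, at 452.4 ± 35.6 FPKM to *Hira*, another H3.3 chaperone gene, at 5.63 ± 0.543 FPKM (SD, n = 3). Here 6 of 7 varied (against 64.7%), 5 of them highest in replicate 1 (31.4%) and 1 lowest, and 2 varied without it (10.6%). Both *H3f3a* and *H3f3b* have many near-identical copies in the genome, so their counts are uncertain. The 7 H4K20 methyltransferases and other repressors ran from *Uhrf1*, which recruits DNMT1 to replicated DNA, at 97.1 ± 14.4 FPKM to *Kmt5b*, an H4K20 methyltransferase gene, at 2.44 ± 0.0710 FPKM (SD, n = 3). Of these 7, 4 varied, near the 64.7% of deeply counted genes, all lowest in replicate 1 (30.8%), and none without it (10.6%).

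Among 8 other KRAB zinc finger genes, 6 were at 1 FPKM or more in every library. *Zfp568*, which represses a placental transcript of *Igf2*, was the highest at 14.5 ± 5.10 FPKM (SD, n = 3), with 1143, 2349, and 2355 counts. *Zfp92* was at 0.134 ± 0.0564 FPKM (SD, n = 3), and *Zfp708* had 0, 3, and 0 counts and was the lowest. Of the 7 tested, 3 varied, near the 47.2% of all genes tested. *Zfp568* was lowest in replicate 1, and *Zfp932* and *Gm15446* were highest in it. None varied without that library (8.11% of all genes tested did). The means of *Zfp445* and *Zfp57* lay below that of *Zfp568* and above those of the other 7 genes, and *Zfp809* lay below the median of the list, which was 3.44 FPKM. *Zfp932* and *Gm15446* are close paralogs, and their counts may be split between them.

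Genes of the 2-cell stage, whose retroviral promoters or inducers are held silent by this machinery in pluripotent cells, were at the limit of detection. Of 11 listed genes, 10 had 0 counts in every library, among them *Duxf3*, *Zfp352*, *Tdpoz4*, and 6 *Zscan4* genes. *Usp17la* had 1, 1, and 2 counts. A count of 0 allows up to 3 counts, which for these genes is between 0.0617 and 0.149 FPKM. Many of them have near-identical copies, and reads that match several copies may not have been counted, so expression was not detectable in this table and is not shown to be absent.

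**Figure D5:**
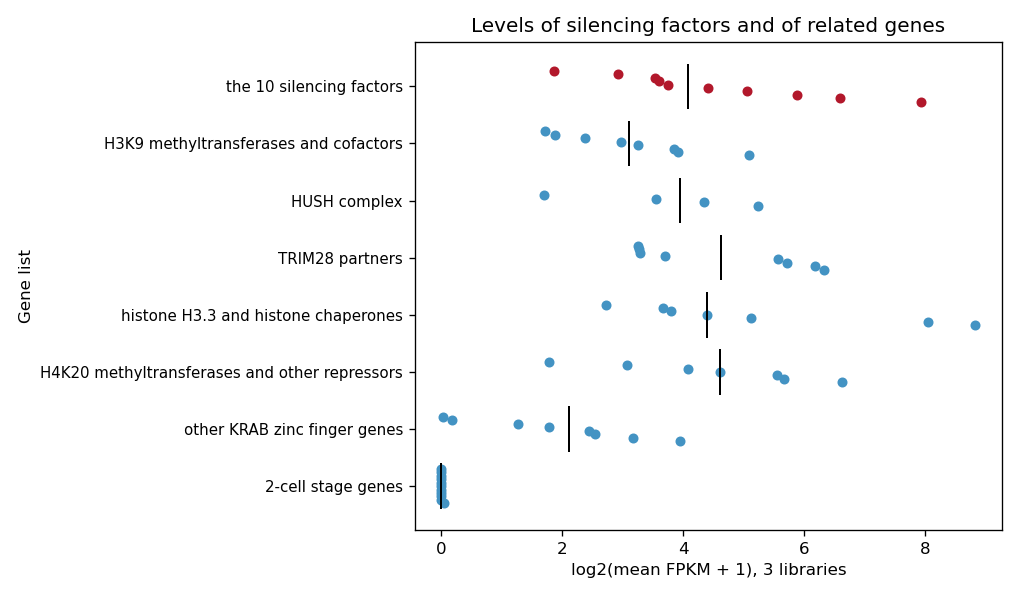
log2(mean FPKM + 1) over the 3 ALSC libraries for each of the 10 silencing factors and of 7 lists of related genes, with 1 point per gene and a bar at the median of these values. *Trim28* is the rightmost of the 10 factors, *H3f3a* and *H3f3b* are the only points of the lists further right, and the 2-cell stage genes lie at or next to 0.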

How the data were processed

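Raw, unnormalized gene counts were deposited by the authors in 1 table, beside the exon length, position, and identifier of each gene. Paired-end reads were mapped to GRCm38, and the submitters' processing notes list HISAT2 2.0.5. The counting program, the handling of strand, and that of reads with several positions are not given in the sources used here. The table's 3 other columns of per-sample counts match no sample of this series and were not used. Of 55738 rows, 317 without a gene name (0.165% to 0.182% of counts) were left out.

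FPKM was computed from counts, exon length, and library totals. TMM factors came from edgeR 4.0.16 and size factors from DESeq2 1.42.0 (R 4.3.3). The other steps used Python 3.11.15 with pandas 2.3.3, NumPy 2.4.6, matplotlib 3.10.9, and SciPy 1.17.1. The chi-square test of homogeneity was run on genes with at least 10 counts in total and was tested on simulated data. The simulated counts held counting error only, so they do not show how the test behaves under variation between cultures. Not detected means at or under 3 counts, a limit that covers counting error only. Trends were medians of 20 groups of equal size. Transcripts came from GENCODE M21 (GRCm38). The 10 members, the lists, and the tests were chosen with earlier results of these data known. All members are named, with the highest and lowest gene of each list. Alternatives covered length, library size, thresholds, a lower count minimum, and each replicate left out in turn.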

Additional observations from a re-analysis of the deposited data

How the results depend on the processing

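No paired analysis was possible because only 1 condition was analysed here. The number of members whose counts varied was between 3 and 6 when a replicate was left out, against 8, and leaving out replicate 1 gave the lowest. *Trim28* did not pass in any pair of libraries (adjusted p = 0.0519, 0.163, and 0.405 without replicates 1, 2, and 3, chi-square test), and *Daxx* did not on plain totals (0.242) or without replicates 1 (0.175) and 2 (0.640). *Cbx1* lost its call without replicate 2 (0.989) and *Cbx3* without replicate 3 (0.685), by the same test. The log2 ratio of replicate 1 changed sign on plain totals for *Trim28* (-0.065) and *Cbx1* (-0.024), and for *Cbx1* also after the trends on length and GC were removed (-0.014). On the length of the longest coding transcript, the shares of *Cbx1*, *Cbx3*, and *Cbx5* in HP1 transcripts were 58.0%, 22.3%, and 19.7%, and 4 pairs of neighbours in the order of levels overlapped. Without replicate 1, 0 pairs overlapped. The alternatives for that order were added after the data had been seen. Mean FPKM shifted by under 1 SD for 10 of 10 members when totals were replaced by TMM or DESeq2 sizes or excluded mitochondrial genes, whereas 8 shifted by more with transcript length, all upward. A mean of 3 cannot shift by 1 SD when 1 library is dropped. With DESeq2's size factors, 10 of 10 members kept their side of the chi-square threshold. Depth limits *Zfp809* most, with at most 152 counts.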
